A study of Mus musculus with 6 samples.

Results

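The angiopoietin and Tie receptor genes are 5 of the 24346 genes in the deposited files, and they were taken by their symbols: the receptor kinases Tie1 and Tek (which encodes Tie2), the ligands Angpt1 and Angpt2, and Ptprb, which encodes the receptor phosphatase VE-PTP. Their expression was measured by RNA-sequencing in endothelial cells (ECs) from MC38 tumors, in 3 samples from WT mice and 3 from Apelin-KO mice, given as FPKM, a read level scaled for transcript length and for the mapped reads of each sample, so that it can be compared between genes. Both groups were on the C57BL/6 strain, 8 to 10 weeks old, and carried subcutaneous tumors of the same mouse colon carcinoma line, examined at day 19. The Apelin-KO mice lack the gene for the peptide Apelin in all host cells, whereas the inoculated MC38 cells were not altered. The titles of all 6 samples also name saline, and the labels do not say whether each sample is a single mouse, so the p-values below measure the spread between these samples. The cells were sorted as positive for CD31 and negative for CD45.

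Tie2 is activated by angiopoietin-1, which is released mainly by pericytes and other cells around the vessel and which holds vessels quiescent. Angiopoietin-2 is made by the ECs themselves, stored in their granules and released in growing or inflamed vessels, where it mostly competes with angiopoietin-1. Tie1 binds no angiopoietin strongly on its own and modulates Tie2, and VE-PTP removes the phosphates from Tie2 and from the VE-cadherin complex. Activated Tie2 is known to induce Apelin in ECs, so the comparison shows the RNA level of these genes in tumor ECs when this downstream peptide is missing. The activity of the pathway was not measured in these data.

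The labelled genotype and cell type were visible in the data. Apln was 432, 435 and 504 FPKM in WT 1, 2 and 3 and 9.96, 17.5 and 24.3 FPKM in Apelin-KO 1, 2 and 3, and the mean in Apelin-KO ECs was 3.78% of that in WT ECs (adjusted p = 0.00747 from limma). The geometric mean of 15 blood EC markers other than the members was 260, 237 and 292 FPKM in WT ECs and 301, 297 and 309 FPKM in Apelin-KO ECs, so every Apelin-KO sample lay above every WT sample. The mean log2(FPKM + 1) of 20 hematopoietic markers ranged from 2.46 to 3.61 in WT ECs and from 1.91 to 2.73 in Apelin-KO ECs, with 13 of the 14 markers that could be tested lower by mean in Apelin-KO ECs, 5 of them (Ptprc, Adgre1, Itgam, Tyrobp and Cd52) at an unadjusted p under 0.05, where 5.17% of all genes tested were so. That of 14 fibroblast markers ranged from 1.995 to 2.64 in WT ECs and from 1.87 to 2.17 in Apelin-KO ECs, with 0 of the 8 tested higher by mean in Apelin-KO ECs and 4 (Col1a1, Col3a1, Dcn and Pdgfra) lower at an unadjusted p under 0.05 (5.17% of all genes tested). Fap, a fibroblast marker too low to be tested, went the other way, at 0.078, 0.133 and 0.043 FPKM in WT ECs and 0.468, 0.427 and 0.337 FPKM in Apelin-KO ECs. Of 15 epithelial tumor cell markers, 13 were below 1 FPKM in each sample, Epcam, Krt8 and Krt19 at 0.284 FPKM or below. Vil1 was 0.433 to 1.48 FPKM, and Krt20, the only one that could be tested, was 6.41 to 10.9 FPKM in WT ECs and 8.49 to 20.6 FPKM in Apelin-KO ECs (log2 difference 0.52, adjusted p = 0.633 from limma). The part of these markers in the results below was not tested. In sorted bulk cells, fewer cells of a type and less RNA per cell cannot be told apart. The estimated depth lay between 8920000 and 10170000 reads per sample.

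Tie1 and Tek lie on the same chromosome. On GRCm38 (mm10), Tie1 spans 18871 bases of the minus strand (chr4:118471191-118490061) and its longest transcript has 22 exons, and Tek spans 135688 bases of the plus strand (chr4:94739289-94874976) with 23 exons. Ptprb lies on the plus strand at chr10:116275523-116389535, Angpt1 on the minus strand at chr15:42424723-42676977 and Angpt2 on the minus strand at chr8:18690263-18741562. Angpt2 overlaps Mcph1, a gene of the opposite strand, which was at 2.68 FPKM or below in each sample. The library kit keeps the strand, but the strand setting used in counting is not given in the sources used here. Ptprb begins 590 bases after the end of Ptprr, which encodes another receptor phosphatase.

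Windows around the annotated starts of Tek and Tie1, 2 of the 5 members, were matched in RefSeq (GRCm38.p6). They are shown because both promoters are known to be driven by ETS factors in ECs. The letters GGAA, the core of ETS sites, were searched on both strands with overlaps allowed, in the 250 bases before and the 50 after each start. They occurred 9 times for Tie1 and 2 times for Tek. Of 32544 such windows, 96.0% held GGAA at least once, with a median of 3 matches, and 1.6% held it as often as that of Tie1. The letters GATAA, the core of GATA sites, occurred 1 time for Tek and 0 times for Tie1, and 25.3% of windows held them. GTAAACA, a FOXO-type site, occurred 0 times in both, and 3.7% of windows held it. Shown are a stretch of 30 bases with 1 of the 2 matches of Tek and a stretch with 3 of the 9 matches of Tie1, which lie at chr4:94739187-94739216 (plus strand) for Tek and at chr4:118490053-118490082 (minus strand) for Tie1, and capitals mark the matches on either strand. They begin at positions -102 and -233 from the RefSeq starts, and that of Tie1 also holds the first bases of the GENCODE gene, which begins upstream of the RefSeq start.
Tek: gcttgttattcaaTTCCtggcctatgagag
Tie1: gcGGAAgccactggcTTCCtccctTTCCtg

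By mean level, the order was Tie1, Angpt2, Tek, Ptprb and Angpt1. Tie1 ranked 195 and Angpt2 504 among the 24346 genes by mean FPKM, Tek 1446 and Ptprb 1796. The FPKM of Tie1 did not overlap with those of Angpt2 over the 6 samples, nor those of Angpt2 with those of Tek. Tek (50.4 to 74.7 FPKM) and Ptprb (42.8 to 58.3 FPKM) overlapped between samples, although Tek was the higher in each of the 6 samples. Angpt1 stood far below, at 0.128 to 1.02 FPKM.

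Genotypes were compared on log2(FPKM + 1) in the 10964 genes whose mean over the 6 samples reached 1 FPKM, with limma and Benjamini-Hochberg adjustment. Tie1, Tek, Ptprb and Angpt2 passed this filter and Angpt1 did not. At an adjusted p-value under 0.05, 0.00912% of the genes tested passed, which was Apln alone, and 0 of the 4 members tested did. Without adjustment, 2 of these 4 were at p under 0.05 with a higher level in Apelin-KO ECs, where 4.25% of all genes tested were so, and 0 were lower, where 5.17% were. The same 2 members, Tie1 and Ptprb, had groups that did not overlap, with Apelin-KO above WT in 7.77% of all genes tested and below it in 6.61%.

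**Figure D1:**
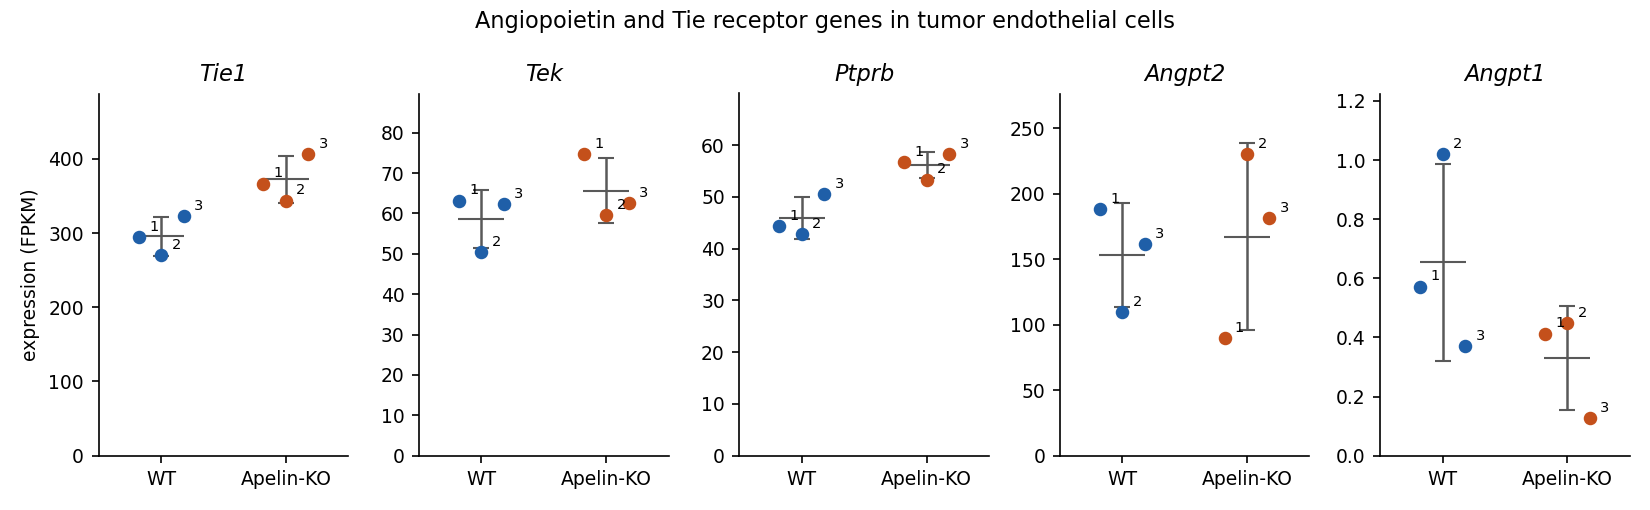
Expression of the 5 genes in FPKM (linear axes from 0) in 3 WT and 3 Apelin-KO samples, with points numbered by replicate, horizontal marks for the mean and bars for the SD. The 3 Apelin-KO samples lie above the 3 WT samples for Tie1 and Ptprb, whereas the groups overlap for Tek, Angpt2 and Angpt1.

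Of the receptors, Tie1 was 295, 270 and 323 FPKM in WT 1, 2 and 3 and 367, 344 and 407 FPKM in Apelin-KO 1, 2 and 3. Every Apelin-KO sample was higher than every WT sample. The genotype means were 296 ± 26.3 and 372 ± 31.97 FPKM (SD, n = 3 each), a log2 difference of 0.33 (standard error 0.12, 95% interval 0.06 to 0.60, unadjusted p = 0.0247, adjusted p = 0.509 from limma). The unadjusted p-value of limma was 0.0618 without WT 1, 0.0864 without WT 2 and 0.0708 without Apelin-KO 3.

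Tek, the gene of the angiopoietin receptor Tie2, was 63.2, 50.4 and 62.2 FPKM in WT ECs and 74.7, 59.6 and 62.6 FPKM in Apelin-KO ECs. WT 2 was the lowest and Apelin-KO 1 the highest sample, and the other 4 lay close together across the genotypes. Apelin-KO minus WT gave a log2 difference of 0.16 with a 95% interval from -0.16 to 0.49 (standard error 0.14, adjusted p = 0.736 from limma), which on the scale of FPKM + 1 spans 0.892- to 1.402-fold of WT. Without WT 2 the difference was 0.06 and without Apelin-KO 1 it was 0.07.

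Ptprb, whose product VE-PTP acts on Tie2 and VE-cadherin, was 44.4, 42.8 and 50.5 FPKM in WT ECs and 56.8, 53.3 and 58.3 FPKM in Apelin-KO ECs. As with Tie1, the groups did not overlap. The genotype means were 45.9 ± 4.05 and 56.2 ± 2.55 FPKM (SD, n = 3 each), and the log2 difference was 0.29 (standard error 0.11, 95% interval 0.04 to 0.54, unadjusted p = 0.0296, adjusted p = 0.513 from limma). In limma the unadjusted p-value was 0.0881 without WT 1, 0.0989 without WT 2, 0.0644 without Apelin-KO 1 and 0.0714 without Apelin-KO 3.

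Of the ligands, Angpt2 was 188, 110 and 162 FPKM in WT 1, 2 and 3 and 89.9, 230 and 181 FPKM in Apelin-KO 1, 2 and 3, so that the lowest and the highest sample were both Apelin-KO. Its highest level was 2.56 times its lowest within the Apelin-KO group and 1.71 times within the WT group. The SD within genotypes was 0.57 on the log2(FPKM + 1) scale, against a median of 0.14 over the 5895 genes whose mean reached 10 FPKM, of which 2.2% had a larger SD. That of Tek was 0.17, that of Tie1 0.13 and that of Ptprb 0.10. That of Angpt1 was 0.25, on a scale where the pseudocount of 1 flattens a gene at this level, and its FPKM differed more than those of Angpt2, by 7.98 times between the highest and the lowest sample. Between genotypes the log2 difference was 0.06 (standard error 0.36, adjusted p = 0.975 in limma), and the 95% interval of -0.80 to 0.91 covers 0.575- to 1.88-fold of WT on the scale of FPKM + 1. Without Apelin-KO 1 it was 0.45, and it turned negative without WT 2 (-0.17), Apelin-KO 2 (-0.23) or Apelin-KO 3 (-0.05).

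Angpt1, the ligand that activates Tie2, was 0.572, 1.02 and 0.370 FPKM in WT ECs and 0.413, 0.448 and 0.128 FPKM in Apelin-KO ECs. The groups overlapped, with WT 2 highest and Apelin-KO 3 lowest. These levels correspond to an estimated 4.9 to 37.0 reads per sample, against at least 2003 reads for Tek, so counting error alone is large. Angpt1 averaged 0.654 ± 0.333 FPKM in WT and 0.330 ± 0.176 FPKM in Apelin-KO ECs (SD, n = 3 each). No difference was detected (adjusted p = 0.644 from limma in the fit without the filter on mean FPKM). The parts of depth and of the spread between samples in this result were not tested. Markers of cells that can make Angpt1 are given beside it. The pericyte marker Pdgfrb was 4.46 to 8.01 FPKM, Notch3 was 0.481 to 0.892 FPKM, and the smooth muscle gene Cnn1 was listed at 0 in 5 of 6 samples, whereas Abcc9 (51.6 to 78.6 FPKM) and Kcnj8 (63.9 to 108 FPKM), also used as pericyte markers, were high. The mean log2(FPKM + 1) of the 13 mural markers was 2.66 to 2.73 in WT ECs and 2.82 to 2.89 in Apelin-KO ECs, with 6 of the 9 tested higher by mean in Apelin-KO ECs, and its part in the level of Angpt1 was not tested. The same score of the 14 fibroblast markers was 2.64, 2.50 and 1.995 in WT ECs and 1.87, 2.14 and 2.17 in Apelin-KO ECs. The 8 tested had a median log2 difference of -0.47 and, like Angpt1, a lower mean in Apelin-KO ECs. Fap, a fibroblast marker under the filter, went the other way, with each Apelin-KO sample above each WT sample. The part of these markers in the level of Angpt1 was not tested either. Ndufa4l2, a mitochondrial protein gene marking pericytes, was the 1 of 9 mural markers tested that was higher at an unadjusted p under 0.05 (4.25% of all genes tested) and without overlap (7.77%), at 1.68, 1.02 and 0.860 FPKM in WT ECs and 1.83, 2.18 and 3.48 FPKM in Apelin-KO ECs (difference 0.66, unadjusted p = 0.0162 from limma). The platelet gene Pf4 was 3.91 to 8.72 FPKM, and Gp6 was listed at 0 in all 6 samples. Angpt4, the third angiopoietin of the mouse, was listed at 0 in 5 of 6 samples and was 0.080 FPKM in Apelin-KO 3.

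Ratios within a sample do not depend on how samples were scaled to each other, so 4 of them were compared by a two-sided exact permutation test, in which 3 against 3 samples allow no p-value below 0.1. Tie1 was 4.66, 5.37 and 5.19 times Tek in WT ECs and 4.90, 5.77 and 6.50 times Tek in Apelin-KO ECs, with overlapping groups (exact permutation p = 0.3, Benjamini-Hochberg adjusted 0.5). Ptprb was 0.703 to 0.850 times Tek in WT ECs and 0.760 to 0.931 times Tek in Apelin-KO ECs (exact p = 0.4, adjusted 0.5). Both receptors and the phosphatase kept 1 order in all 6 samples. Angpt2 was 2.98, 2.18 and 2.60 times Tek in WT ECs and 1.203, 3.87 and 2.89 times Tek in Apelin-KO ECs, which again spread on both sides of WT (exact p = 0.9, adjusted 0.9). Without Apelin-KO 1 the log2 difference of this ratio turned from -0.11 to 0.38. The ratio of Angpt2 to Angpt1 was 329, 108 and 437 in WT ECs and 218, 514 and 1414 in Apelin-KO ECs (exact p = 0.4, adjusted 0.5). The value of 1414 rests on the few reads of Angpt1 in Apelin-KO 3.

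**Figure D2:**
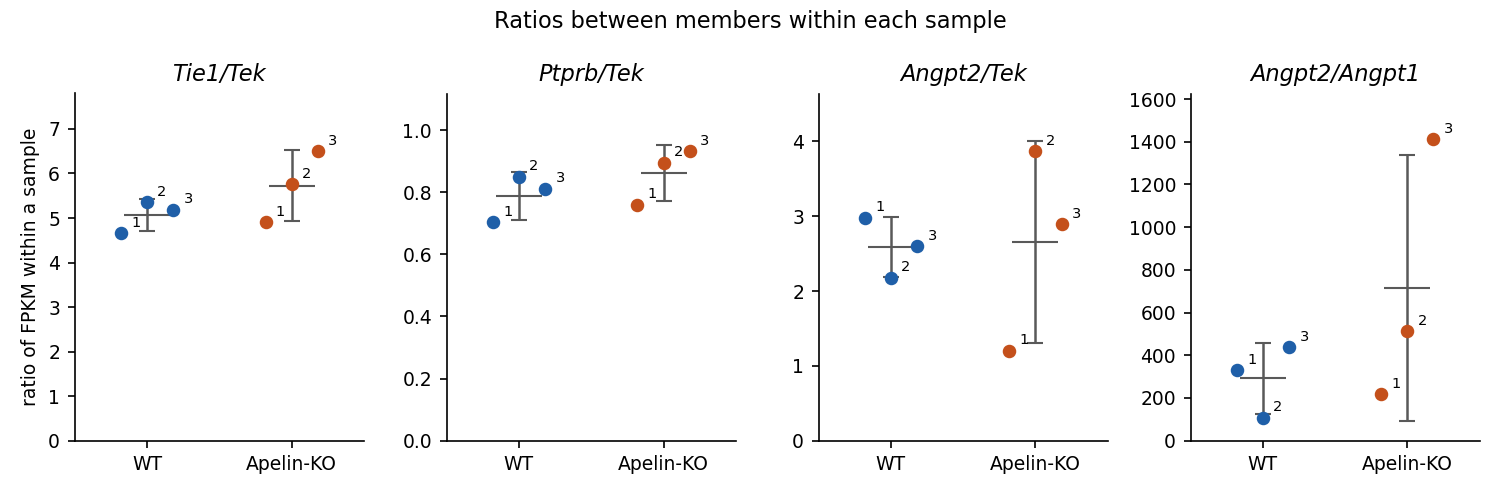
Ratios of FPKM within each sample (linear axes from 0) in 3 WT and 3 Apelin-KO samples, with points numbered by replicate, marks for the mean and bars for the SD. All 4 ratios overlap between genotypes, and Angpt2/Tek runs from 1.203 to 3.87 within the Apelin-KO samples.

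Because EC markers were higher by mean in the Apelin-KO samples, the members were set against them. Of the 15 markers, 14 had a positive log2 difference, with a median of 0.21 where the median over all genes tested was 0.01, and 3 of the 15 (Cdh5, Vwf and Pecam1) were higher at an unadjusted p under 0.05 (4.25% of all genes tested). Cdh5, which encodes VE-cadherin, averaged 180 ± 30.6 FPKM in WT and 248 ± 40.3 FPKM in Apelin-KO ECs, and Pecam1, used in the sort, 603.5 ± 60.5 and 760.1 ± 79.5 FPKM (SD, n = 3 each). The differences of Tie1 and Ptprb lay within the range of these markers, which ran from -0.02 to 0.46. When each sample was divided by the geometric mean of the EC markers, the log2 difference of Tie1 was 0.13 (95% interval -0.15 to 0.40), that of Ptprb 0.09 (-0.17 to 0.35), that of Tek -0.04 (-0.36 to 0.28) and that of Angpt2 -0.15 (-0.93 to 0.63). This scaling moved the median of all genes from 0.01 to -0.18. As a percentage of the EC marker mean, Tie1 was 113, 114 and 111 in WT ECs and 122, 116 and 132 in Apelin-KO ECs, where the groups still did not overlap. After this scaling, 124 of the 10964 genes tested were higher in Apelin-KO ECs without overlap and 2183 were lower. Ptprb was 17.1, 18.1 and 17.3 percent in WT ECs and 18.8, 17.96 and 18.9 percent in Apelin-KO ECs, where the groups overlapped. Tek was 20.1 to 24.8 percent over all 6 samples. The part of the lower hematopoietic marker level in the differences of Tie1 and Ptprb was not tested.

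**Figure D3:**
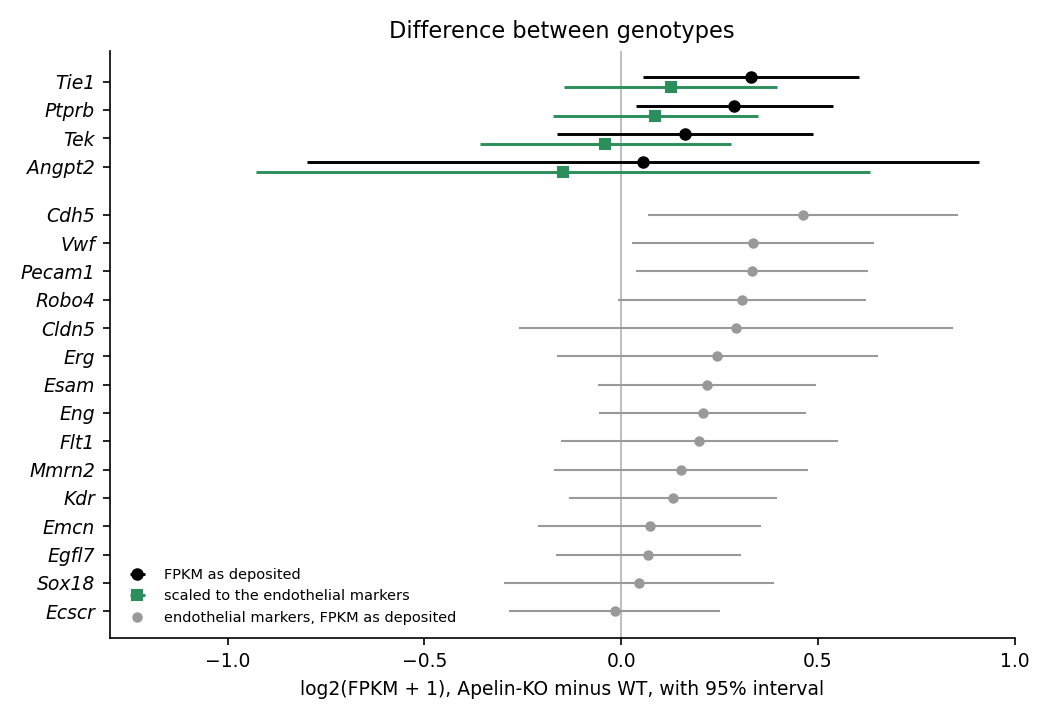
Log2(FPKM + 1) of Apelin-KO minus WT ECs with 95% intervals for the 4 members tested, with FPKM as deposited (black circles) and after scaling to the EC markers (green squares), and for the 15 EC markers (gray). The intervals of Tie1 (0.06 to 0.60) and Ptprb (0.04 to 0.54) lie above 0 with FPKM as deposited, and all 4 intervals hold 0 after scaling.

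The genes around the receptors were read from lists of signaling partners, and no gene of these lists had an adjusted p-value under 0.05 in limma. Of 21 adaptors and effectors of Tie2, 18 could be tested, with a median log2 difference of 0.09 (-0.12 after scaling to the EC markers, where the median of all genes was -0.18), and 1 was at an unadjusted p under 0.05 with a higher level in Apelin-KO ECs (4.25% of all genes tested) and 0 with a lower level (5.17%). That gene was Foxo1, the transcription factor that Tie2 signaling keeps out of the nucleus through AKT. It was 29.995, 27.3 and 30.022 FPKM in WT ECs and 32.7, 33.6 and 39.7 FPKM in Apelin-KO ECs, a difference of 0.27 (standard error 0.11, unadjusted p = 0.0495 from limma). Akt1, the kinase downstream of Tie2, averaged 191 ± 6.07 FPKM in WT and 214 ± 19.9 FPKM in Apelin-KO ECs, with overlap. Nos3, the endothelial nitric oxide synthase, averaged 107 ± 9.41 and 121 ± 2.01 FPKM (SD, n = 3 each), without overlap (unadjusted p = 0.135 from limma). In this list, 3 of the 18 tested were higher without overlap (7.77% of all genes tested) and 0 were lower (6.61%). The largest differences of this list were negative. Pak1, a kinase of the cytoskeleton, was 2.50, 3.37 and 1.37 FPKM in WT ECs and 0.707, 1.19 and 2.21 FPKM in Apelin-KO ECs (difference -0.53, unadjusted p = 0.112 from limma). Pik3r2, a regulatory subunit of PI3-kinase, was 8.32, 8.75 and 5.51 FPKM and 5.11, 4.95 and 6.59 FPKM (difference -0.37, unadjusted p = 0.0863 from limma), and both genes overlapped between genotypes. Dok2, an adaptor that binds Tie2, was under the filter, at 1.04, 1.02 and 0.359 FPKM in WT ECs and 0.211, 0.128 and 0.209 FPKM in Apelin-KO ECs, which all lay below WT. Dok2 is also known in hematopoietic cells, whose marker Ptprc (CD45) was 3.13, 4.84 and 1.27 FPKM in WT ECs and 0.043, 1.70 and 0.740 FPKM in Apelin-KO ECs, and their part in the level of Dok2 was not tested.

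Of 15 transcription factors placed upstream of Angpt2 or Tek, 13 could be tested and all 13 had a positive difference, with a median of 0.27, against 52.5% of all genes tested with a positive difference. After scaling to the EC markers 9 of the 13 were positive, with a median of 0.07, against 17.1% of all genes. The factors at an unadjusted p under 0.05 were 3, namely Foxo1, Gata2 and Fli1, all higher in Apelin-KO ECs (4.25% of all genes tested), and Apelin-KO lay above WT without overlap for 6 (7.77% of all genes tested). Gata2, a hematopoietic and endothelial GATA factor, averaged 13.3 ± 0.326 FPKM in WT and 16.4 ± 0.609 FPKM in Apelin-KO ECs (SD, n = 3 each, difference 0.29, adjusted p = 0.501 from limma). Fli1, an ETS factor, was 72.8 ± 0.663 and 92.5 ± 13.7 FPKM (SD, n = 3 each; difference 0.33, adjusted p = 0.513). Klf2, which flow induces and which lowers Angpt2, was 142, 118 and 146 FPKM in WT ECs and 155, 155 and 178 FPKM in Apelin-KO ECs. Hif1a, of the hypoxia response that raises Angpt2, overlapped between genotypes at 165 to 175 and 155 to 212 FPKM. Several of these factors are themselves expressed mainly in ECs, and Erg is also among the EC markers.

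Weibel-Palade bodies are the granules from which ECs release angiopoietin-2. Of 17 genes of their cargo and release, 13 could be tested, with a median of 0.12 (-0.02 after scaling to the EC markers), and 3 were at an unadjusted p under 0.05 with a higher level in Apelin-KO ECs (4.25% of all genes tested) and 0 with a lower level (5.17%). Vwf, which forms the granules and is also among the EC markers used for scaling, was 213, 216 and 279 FPKM in WT ECs and 290, 289 and 308 FPKM in Apelin-KO ECs. Ece1, the endothelin-converting enzyme, was 197 ± 18.99 and 243 ± 13.3 FPKM (SD, n = 3 each), and Rab27a, a granule GTPase, was 1.90 ± 0.314 and 2.82 ± 0.541 FPKM (SD, n = 3 each). The largest difference was that of Cd63, a membrane protein of these granules and of lysosomes, which was 206, 189.6 and 129.96 FPKM in WT ECs and 107, 123 and 159 FPKM in Apelin-KO ECs, with overlap (difference -0.42, unadjusted p = 0.0928 from limma). Selp, the granule adhesion molecule P-selectin, overlapped between genotypes at 10.2 to 17.97 and 13.8 to 20.8 FPKM.

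Of 18 other receptor tyrosine phosphatases, 8 could be tested, with a median of 0.09 (-0.11 after scaling to the EC markers), and 3 were listed at 0 in all samples. Ptprm (65.05 to 94.99 FPKM) and Ptpra (73.4 to 88.5 FPKM) were the highest by mean, each above Ptprb in all 6 samples. Ptprr, the gene next to Ptprb, was 4.77, 7.05 and 4.76 FPKM in WT ECs and 12.5, 5.98 and 9.96 FPKM in Apelin-KO ECs, with overlapping groups (difference 0.65, standard error 0.26, unadjusted p = 0.0405 from limma). Ptprs was lower in Apelin-KO ECs by mean, at 3.52 ± 1.31 and 2.02 ± 0.379 FPKM (SD, n = 3 each, difference -0.55, unadjusted p = 0.0483 from limma), and it overlapped too.

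Of 11 proteases and partners of the Tie receptors, 10 could be tested, with a median of 0.02 (-0.19 after scaling to the EC markers). Mmp14, a protease known to shed the ectodomain of Tie2, was 250 to 373 FPKM in WT ECs and 263 to 346 FPKM in Apelin-KO ECs. Adam17, which sheds many receptors, was 43.9 ± 1.22 and 43.0 ± 2.24 FPKM (SD, n = 3 each). Mmp9 was 42.2, 36.1 and 18.9 FPKM in WT ECs and 6.08, 19.4 and 16.4 FPKM in Apelin-KO ECs (difference -1.22, unadjusted p = 0.0298 from limma). Its lowest sample, Apelin-KO 1, was also the lowest for Ptprc (CD45), at 0.043 FPKM against 0.740 to 4.84 FPKM in the other 5. Mmp9 was highest in WT 1, whereas Ptprc was highest in WT 2. The part of hematopoietic cells in the level of Mmp9 was not tested. Mmp2, a gelatinase, was 61.2, 36.3 and 28.0 FPKM and 17.3, 24.9 and 32.1 FPKM (difference -0.70, unadjusted p = 0.0641 from limma). Itga5 and Itgb1 encode an integrin that binds Tie2. Itga5 was 192 to 216 FPKM in WT ECs and 222 to 231 FPKM in Apelin-KO ECs, the 1 gene of this list without overlap (7.77% of all genes tested; difference 0.15, adjusted p = 0.656 from limma), and Itgb1 overlapped at 548 to 665 and 581 to 730 FPKM. Of the angiopoietin-like genes, Angptl4 (123 to 363 FPKM) and Angptl2 (3.93 to 19.9 FPKM) could be tested, with differences of 0.66 and -0.77 (adjusted p = 0.543 and 0.606 from limma), and their groups overlapped.

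**Figure D4:**
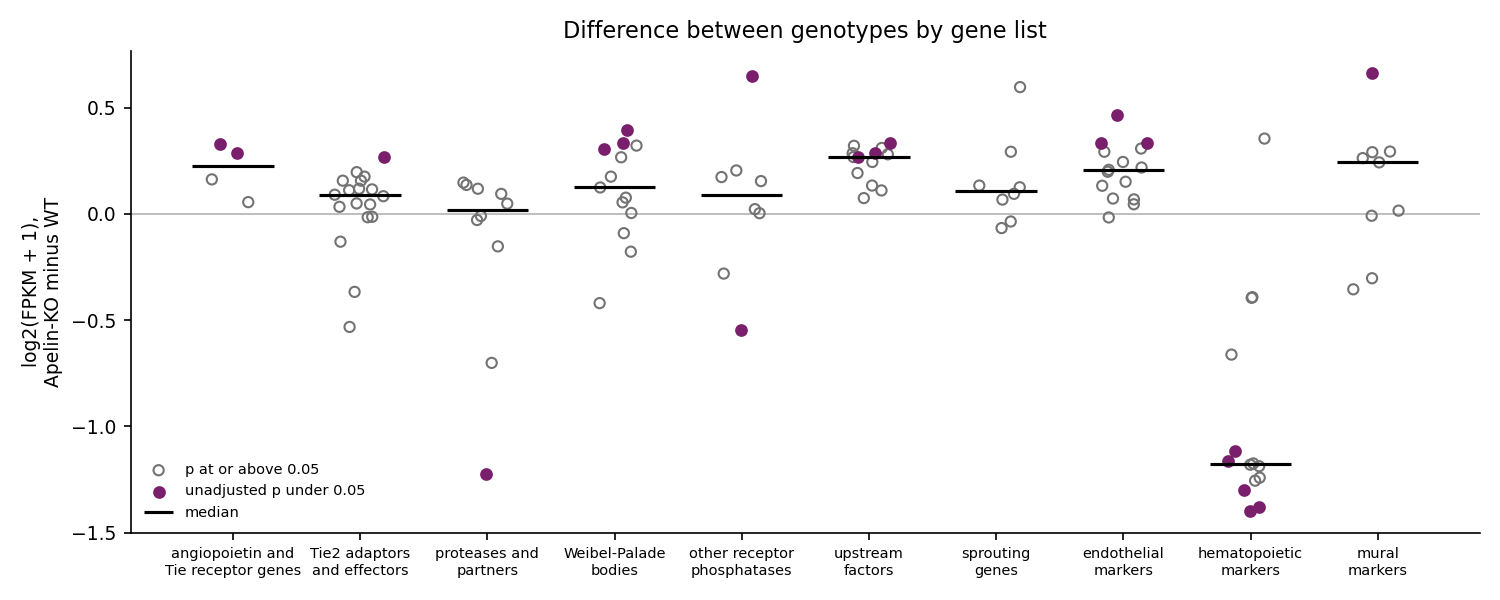
Log2(FPKM + 1) of Apelin-KO minus WT ECs for each tested gene of the members, 6 lists around them and 3 marker lists (filled points, unadjusted p under 0.05; open points, p at or above 0.05; lines, medians). With FPKM as deposited, the upstream factors (median 0.27) and EC markers (median 0.21) lie mostly above 0, and the hematopoietic markers (median -1.18) mostly below 0. Scaling to the EC markers brings the upstream factors to a median of 0.07. It brings the EC markers to 0.00, which follows from dividing by these same markers.

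The genes most like each member over the 6 samples were sought by Pearson correlation of log2(FPKM + 1) with 5894 other genes whose mean reached 10 FPKM. They were Dusp6, Dusp3 and Rnf41 for Tie1 (0.994, 0.994 and 0.993) and Lrrc8a, Fam171a1 and Gpr4 for Ptprb (0.992, 0.991 and 0.987). For Tek they were Gipc1, Map6 and Igfbp4 (0.988, 0.987 and 0.980), and for Angpt2 they were Nab1, Fhl2 and Acbd3 (0.987, 0.977 and 0.974). These are for each member the highest of 5894 values over 6 samples that share the genotype difference, and they are given as a description. No gene was among the nearest of more than 1 member.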

How the data were processed

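RNA-sequencing data of sorted tumor ECs in 3 WT and 3 Apelin-KO samples were analysed. The authors prepared stranded mRNA libraries, read single ends, aligned them to mm10 by TopHat with Bowtie2 and SAMtools, and deposited FPKM values made with Cufflinks 2.2.1. The submitters' processing notes give TopHat2 2.1.1, Bowtie2 2.2.4 and SAMtools 1.0, and other versions stand in the methods. The annotation and filters are not given in the sources used here.

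FPKM were used as deposited. The 10964 genes whose mean reached 1 FPKM were fitted on log2(FPKM + 1), where the pseudocount of 1 understates changes of low genes, with limma 3.58.1 in R 4.3.3 (two-sided moderated test, no block, Benjamini-Hochberg adjustment over all genes tested). FPKM are not counts, so limma replaced the study's unmoderated test. The script was checked on simulated data. Ratios were compared by an exact permutation test over samples in Python 3.11.15.

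Depth was estimated from the step of 1 read in low FPKM of 3742 genes with 1 annotated transcript longer than 700 bases (200-base fragments assumed), where 68.5% to 72.3% of low values fell within 0.1 of a whole read and 20% would if spread evenly. Reads per member use the longest transcript in GENCODE vM21.

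The members and lists were chosen with earlier results of these data known. The rule named the members and Apln, allowed list genes with the largest differences, at an unadjusted p under 0.05 or defining their list, and named the 3 genes most correlated with each member. Mcph1, Vil1, Dok2, Fap, Abcc9, Kcnj8, Mmp14, Klf2, Akt1, Nos3, Hif1a, Selp, Ptprm, Ptpra, Adam17, Itga5 and Itgb1 were named outside that rule, after their values were seen. Alternatives changed the pseudocount, filter, scaling, variance, samples or block.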

Additional observations from a re-analysis of the deposited data

How the results depend on the processing

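Tie1 and Ptprb kept a positive difference, and an adjusted p-value above 0.05, under all 14 alternatives run for each, with adjusted p-values of 0.346 to 0.939 and 0.333 to 0.939 from limma. Tek did so under 13 of 14. Scaling to the EC markers reversed Tek to -0.04 and Angpt2 to -0.15 and raised the genes at an unadjusted p under 0.05 from 1033 to 1580, of which 4.7% in place of 45.1% were higher in Apelin-KO ECs. Of genes without overlap between groups, 5.4% in place of 54.0% were higher. The difference of Angpt2 ran from -0.23 to 0.45 with a sample left out. The log2 ratio of Angpt2 to Tek ran from -0.46 to 0.38, and was -0.11 with all 6 samples. For both the cause was not tested. The difference of Angpt1 was -0.31 and became -0.82 with a pseudocount of 0.1, as that scale stretches low values. It ran from -0.43 to -0.15 with a sample left out, and was -0.15 without WT 2 and -0.19 without Apelin-KO 3. The adjusted p-value was under 0.05 for 1 gene, and for 2 without the filter, with a mean of at least 5 FPKM or with an intensity trend. An unmoderated fit, on the variance of the gene alone, gave 0 (783 genes at an unadjusted p under 0.05), and the count was 0 to 3 with a sample left out, with 0 without WT 2 and without Apelin-KO 2 (536 and 1164 genes at an unadjusted p under 0.05 in limma) and 3 without WT 1. The unadjusted count ran from 536 to 1228 with a sample left out. No overlap between groups was seen for 1577 genes, and for 2198 to 3296 with a sample left out, where fewer samples can overlap. Replicate numbers were not shown to pair samples: deviations of same-numbered samples correlated by -0.14, 0.21 and -0.02, and WT 1 correlated best with Apelin-KO 3. With the replicate number as a block, the unadjusted count was 893, the adjusted count 1 and the difference of Tie1 0.33 (adjusted p = 0.587 from limma). The ratio differences did not change direction under the block or with FPKM + 1, but that of Angpt2 to Angpt1 went from 1.12 to 0.36 with FPKM + 1, and ran from 0.43 without Apelin-KO 3 to 1.78 without Apelin-KO 1 with a sample left out. It was 0.51 without WT 2. The log2 ratio of Tie1 to Tek was 0.17 and ran from 0.07 to 0.27, lowest without Apelin-KO 3 (0.11 without WT 1) and highest without Apelin-KO 1, and that of Ptprb to Tek was 0.13 and ran from 0.05 without WT 1 to 0.22 without Apelin-KO 1 (0.07 without Apelin-KO 3). Angpt1 had the fewest estimated reads of the members, and the part of depth in its difference was not tested.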

Other observations

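Tie1 and Angpt2 are also known for their part in lymphatic vessels, so 7 lymphatic EC markers were read. Of these, 0 were at an unadjusted p under 0.05 in limma, where 9.42% of all genes tested were so, a share at which 0 of 7 says little. Mmrn1 was 167, 61.8 and 69.7 FPKM in WT ECs and 43.2, 68.7 and 67.8 FPKM in Apelin-KO ECs, and Prox1, the defining transcription factor of lymphatic ECs, was 17.7, 7.81 and 8.83 FPKM and 6.08, 9.21 and 7.38 FPKM. WT 1 was the highest sample and Apelin-KO 1 the lowest for both genes. Ccl21a, a chemokine of lymphatic vessels and lymph nodes, was 39.1 FPKM in Apelin-KO 2 and at 0.48 FPKM or below in the other 5 samples. Apelin-KO 2 also had the highest and Apelin-KO 1 the lowest level of Angpt2.

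Of 8 genes of sprouting tip ECs, with which Angpt2 is usually listed, 0 were at an unadjusted p under 0.05 in limma (9.42% of all genes tested), which for so few genes is near that share, and the median difference was 0.11 (-0.10 after scaling to the EC markers). Esm1 was 456, 516 and 713 FPKM in WT ECs and 496, 643 and 642 FPKM in Apelin-KO ECs. Adm, which encodes adrenomedullin, was 187, 123 and 159 FPKM and 137, 286 and 323 FPKM, so that Apelin-KO 1 lay far below Apelin-KO 2 and 3, as it did for Angpt2.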
